A study of Mus musculus with 17 samples.

Results

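The prominin genes Prom1 and Prom2 are 2 of the 27020 genes measured in the livers of 17 mice, taken from the deposited table by their symbols. They were chosen by their values in KO and WT livers, both being lower in KO, so every comparison that holds those libraries is given for them as a description with no test. The 10 libraries of the KO_star and WT_star groups took no part in that choice, and the difference between these groups was tested. Both genes passed the filter on low values, which kept the 16157 genes with 10 or more normalized reads in 3 or more libraries.

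KO_star mice (n = 6) lack Khdc3, whose protein belongs to the subcortical maternal complex of oocytes and early embryos, and were born to heterozygous parents whose own parents were a mix of WT and KO animals. KO mice (n = 3) also lack Khdc3 but come from KO ancestors. WT_star mice (n = 4) are WT for Khdc3 and have the same mixed descent as KO_star, and WT mice (n = 4) come from WT ancestors. All were 8 weeks old, the WT_star and KO_star mice are described as female, and the null allele is not limited to liver by any driver named in the labels.

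Prominins are cholesterol-binding membrane glycoproteins that cross the membrane several times and gather in microvilli, primary cilia and other protrusions. Prom1, known as CD133, is a widely used marker of stem and progenitor cells, and in liver it is known from bile duct and progenitor cells. Prom2 is its paralogue in many epithelia, and in human cells it has been linked to the export of ferritin in vesicles and to resistance to ferroptosis.

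The genes lie on different chromosomes. Prom1 (ENSMUSG00000029086.15) spans chr5:43993620-44102032 on the minus strand of GRCm38, and Prom2 (ENSMUSG00000027376.15) spans chr2:127526473-127541467, also on the minus strand. The 250 bases before the RefSeq start of each gene are shown because the genes are low in KO from separate loci. These windows let a reader set the sequence before each start side by side. They come from RefSeq on GRCm38.p6 and cover chr5:44101737-44101986 and chr2:127541418-127541667, read on the minus strand from 5′ to 3′. The Prom1 window lies within the gene span given above, and the Prom2 window overlaps the 5′ end of its span. Capitals mark matches, on either strand, to a CCAAT box, to the letters GGGCGG of a GC box, or to an AP-1 site, for which the heptamer TGACTCA was searched.
Prom1: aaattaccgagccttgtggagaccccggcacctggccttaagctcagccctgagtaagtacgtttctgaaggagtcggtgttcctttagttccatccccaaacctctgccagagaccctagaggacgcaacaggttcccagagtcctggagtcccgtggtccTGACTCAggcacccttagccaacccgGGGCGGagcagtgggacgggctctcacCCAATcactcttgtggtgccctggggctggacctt
Prom2: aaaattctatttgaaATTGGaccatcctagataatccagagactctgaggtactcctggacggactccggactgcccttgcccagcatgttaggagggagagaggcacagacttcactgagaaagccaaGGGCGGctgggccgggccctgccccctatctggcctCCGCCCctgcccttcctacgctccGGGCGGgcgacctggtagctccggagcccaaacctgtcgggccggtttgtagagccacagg
The Prom1 window held 1 GC box 62 bases before the start, 1 CCAAT box at 35 bases and 1 AP-1 site at 88 bases. The Prom2 window held 3 GC boxes at 121, 85 and 61 bases, the one at 85 on the other strand, and 1 CCAAT box at 235 bases, also on the other strand. Of 32851 mouse windows of this length, 32.7% held the GC box, 33.8% the CCAAT box and 4.5% the AP-1 site, so the 2 motifs that both windows hold are common. No match was found in these windows for a TATA box (TATAAA, in 12.4% of windows), a SOX core (AACAAT, 9.4%) or an E-box (CACGTG, 6.0%), searched on both strands. The windows shown held 59.2% G and C for Prom1 and 60.8% for Prom2, against a median of 52.4%. Of annotated transcripts, 2 of 19 for Prom1 and 1 of 4 for Prom2 hold the bases that follow these starts. RefSeq has a further Prom1 start inside the gene, whose following bases are held by 10 of 19 transcripts. Its window, chr5:44094769-44095018, had 50.8% G and C, below the median, and no match to any of the motifs searched. Which start liver uses cannot be read from values per gene.

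Depth lay between 17.62 and 26.7 M reads assigned to genes (M for mega). Values below are the authors' normalized read counts, where 1 read is worth 0.792 to 1.182 depending on the library. Khdc3 had at most 4 reads in any library, so its own level in liver does not check the genotype labels. The labels give the cell type as hepatocyte, while 7 marker genes of endothelium summed to 7819 to 11000 and 7 of Kupffer cells, the liver's macrophages, to 4370 to 9140 in every library, so other liver cells contributed RNA. In such bulk samples, fewer cells of a type and less RNA per cell cannot be told apart. Library KO_star 16 stood apart from all others. The pancreatic acinar enzyme genes Cpa1, Cpb1, Cel, Pnlip and Ctrb1 had 525.4 to 820.2 in it and at most 2.37 in any other library, and the imprinted RNA H19 had 17510 against 2.66 to 288.8. Results on KO_star are therefore given with and without this library.

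Prom1 was low in KO livers, and varied widely within each of the other groups. It had 81.8, 109.2 and 51.2 normalized reads in the 3 KO libraries, against 791, 386.9, 318.5 and 264.5 in the WT libraries. All KO libraries lay below all WT libraries, and among WT libraries WT 25 stood highest. The difference in mean log2(value + 1) was -2.36, a description since it chose the gene. As background, 2.89% of all genes tested were called between KO and WT at an adjusted p under 0.05, and for 9.49% every KO library lay below every WT library.

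In mice of mixed ancestry Prom1 overlapped with the WT range. WT_star libraries had 237.4, 143.0, 711.6 and 313.5, against 264.5 to 791 in WT, and 2 of the 4 lay below the lowest WT library. The log2 difference of WT_star against WT was -0.44, with overlapping groups. In KO_star libraries the lowest value was 137.8, the median 241.9 and the highest 532.1, with KO_star 16 next to the top at 526.2. Each KO_star library was above the highest KO library, at 109.2, although both groups lack Khdc3. The log2 difference of KO_star against KO was 1.80 with all KO_star libraries and 1.60 without KO_star 16, and 5.31% of genes tested had all KO_star libraries above all KO libraries.

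Ordered by mean, Prom1 had 80.7 ± 29.03 in KO (SD, n = 3), 308.6 ± 175.6 in KO_star (n = 6), 351.4 ± 250.1 in WT_star (n = 4) and 440.1 ± 239.0 in WT (n = 4). The 3 upper groups overlapped, and neighbours among them differed by less than their SD. Only KO lay apart from each of the others. Without KO_star 16 the KO_star mean was 265.1 ± 156.0 (n = 5), which leaves the order as it was. A pair of predicted genes, named after their values were seen, overlap Prom1: Gm16401 at its 5′ end on the opposite strand, with 0 to 18.6, and Gm42716 within it on the same strand. Gm42716 had 8.96 to 16.4 in WT_star, against 0 to 0.82 in WT, 0 to 1.78 in KO and 0 to 4.755 in KO_star. Every WT_star library lay above every WT library, as for 4.12% of genes tested. Gm42716 did not pass the filter on low values, and with no filter it was called in WT_star against WT. With no strand setting given for the counting, reads of Prom1 and Gm16401 cannot be told apart where they overlap, but the values of Gm16401 were small beside those of Prom1.

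Prom2 was present at an even level in WT livers and close to absent in KO livers. It had 2.24, 1.78 and 0 in the KO libraries, against 279.2, 255.4, 218.0 and 208.7 in WT. In reads, the 3 KO libraries together held 4 reads in 61.99 M, or 0.0645 per M (exact 95% Poisson interval 0.0176 to 0.165, counting error only), against 1022 reads and 11.4 per M (10.7 to 12.1) in WT. The KO to WT ratio of these rates was 0.00568, a description since these libraries chose the gene. The log2 difference was -6.85, which depends on the pseudocount of 1 at values this low.

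**Figure D1:**
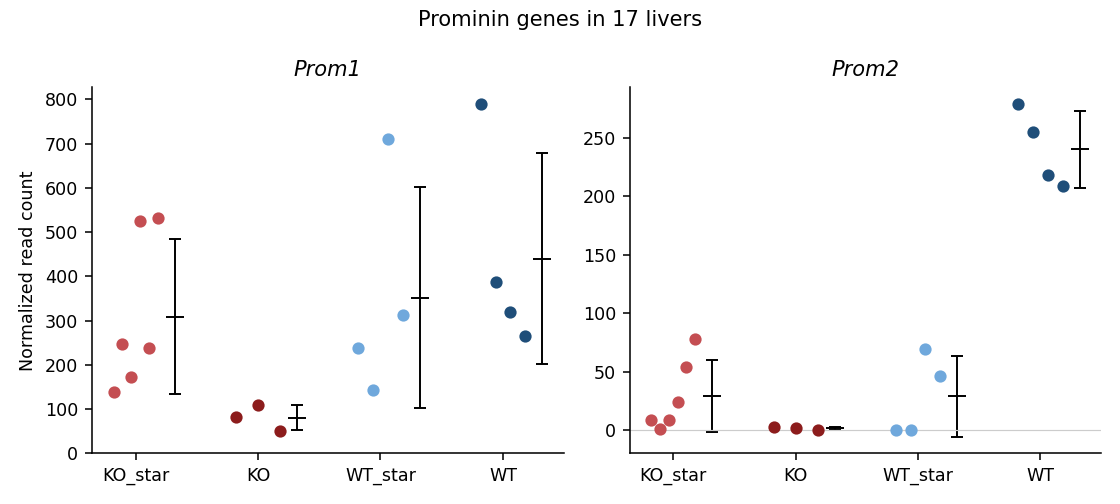
Normalized read counts of Prom1 and Prom2 in each of the 17 libraries by group, 1 point a library. Bars show the mean ± SD of each group (KO_star n = 6, KO n = 3, WT_star n = 4, WT n = 4). Prom1 is lowest in the 3 KO libraries (51.2 to 109.2), and Prom2 is highest in the 4 WT libraries (208.7 to 279.2), above all 13 libraries with KO ancestry.

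Prom2 was lower and more spread in mice of mixed ancestry than in WT mice. The WT_star libraries had 0, 0, 69.4 and 46.4, against 208.7 to 279.2 in WT. These mice are WT for Khdc3, yet all 4 lay below every WT library, and WT_star 20 and WT_star 21 held no read, which allows values of up to 2.69 and 2.90 at a limit of 3 reads. The log2 difference of WT_star against WT was -4.98, and it ran from -3.06 with DESeq2 to -6.38 with library weights, and from -4.00 to -6.05 leaving out 1 library. Of all genes tested, 4.83% had every WT_star library below every WT library, and 0.904% were called. In KO_star the lowest value was 1.06, the median 16.1 and the highest 78.0. KO_star 29 and KO_star 17 were highest, KO_star 13 lowest, and KO_star 16 had 23.8.

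All 13 libraries of the KO_star, KO and WT_star groups, at 78.0 or less, thus lay below the lowest WT library, at 208.7. Between KO_star and WT alone, 1.57% of genes tested had all KO_star libraries below all WT libraries. Ordered by mean, Prom2 had 1.34 ± 1.18 in KO (SD, n = 3), 28.9 ± 30.7 in KO_star (n = 6), 28.95 ± 34.7 in WT_star (n = 4) and 240.4 ± 32.9 in WT (n = 4). KO_star and WT_star had nearly the same mean, and both ranges reached down into the KO range. The SD as a percentage of the mean was 106.0% in KO_star and 119.9% in WT_star, against 13.7% in WT. Without KO_star 16 the KO_star mean was 29.9 ± 34.2 (n = 5). The log2 difference of KO_star against KO was 2.97, and 2.85 without KO_star 16, with overlapping groups. It was 1.88 with a pseudocount of 5 and 4.44 with DESeq2.

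The genes can be set side by side per kb of exon. On that scale of normalized reads per kb, Prom1 had 43.0 in KO_star, 11.3 in KO, 49.0 in WT_star and 61.3 in WT. Prom2 had 5.57, 0.258, 5.58 and 46.3 in the same groups. In WT livers the level of Prom2 per kb was close to that of Prom1, whereas in each group with KO ancestry the mean of Prom2 per kb was well below that of Prom1. For Prom1 the group that stood apart was KO, and for Prom2 it was WT.

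The comparison of genotypes within mixed ancestry was the one that the choice of the genes left untouched, and it called neither gene. For Prom1, KO_star libraries ran from 137.8 to 532.1 and WT_star libraries from 143.0 to 711.6. The log2 difference was -0.13 (SE 0.49, 95% interval -1.17 to 0.91), with a limma adjusted p of 0.971 and an exact two-sided permutation p of 0.771. As a fold on the log2(value + 1) scale this is 0.915, with an interval of 0.445 to 1.89 that includes both lower and higher levels in KO_star. Without KO_star 16 the log2 difference was -0.32, with a limma adjusted p of 0.950.

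For Prom2, KO_star libraries ran from 1.06 to 78.0 and WT_star libraries from 0 to 69.4. The log2 difference was 1.11 (SE 1.27, 95% interval -1.62 to 3.83), with a limma adjusted p of 0.907 and an exact two-sided permutation p of 0.495. The fold interval was 0.326 to 14.2, and 2 WT_star libraries were at 0. The log2 difference depended on the setting, from 0.0009 with DESeq2 and 0.04 with edgeR to 2.71 with library weights, and from 0.13 to 2.18 leaving out 1 library, and it was called in none of them. Without KO_star 16 the log2 difference was 0.99, with a limma adjusted p of 0.943. Of all genes tested in this comparison, 0% were called by limma and 7.33% had an unadjusted p under 0.05, edgeR called 0 genes and DESeq2 62. The interaction of genotype and ancestry, KO_star minus WT_star less KO minus WT, was called by limma for 1.29% of genes tested, and was not tested for the prominins.

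**Figure D2:**
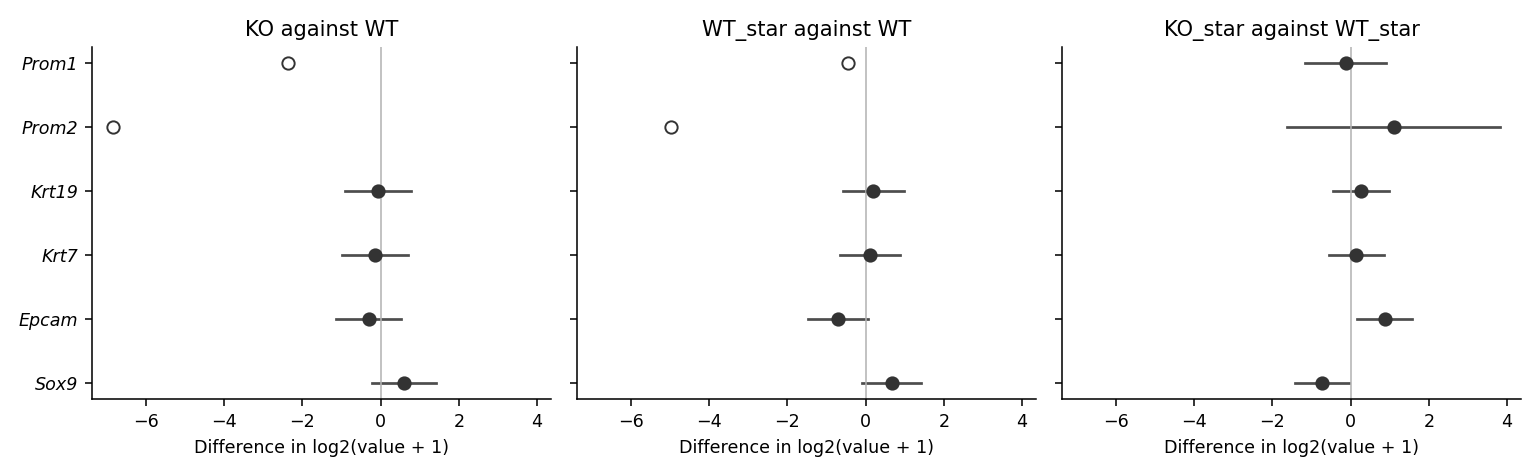
Differences in mean log2(value + 1) of Prom1, Prom2, Krt19, Krt7, Epcam and Sox9 for KO against WT, WT_star against WT, and KO_star against WT_star, with bars for 95% intervals where a test was made and open symbols where the choice of genes had used the libraries. The prominins lie at -2.36 and -6.85 for KO against WT, while the biliary genes lie between -0.30 and 0.61.

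Within the 10 libraries of mixed ancestry, Prom1 and Prom2 tended to be high in the same livers. WT_star 33 had the highest Prom1 of WT_star and its highest Prom2, at 711.6 and 69.4, and KO_star 29 the highest of both in KO_star, at 532.1 and 78.0. Pearson's r of the log2 values was 0.65 (permutation p 0.0435) and Spearman's rho 0.74 (permutation p 0.0191), both two-sided. This was 1 of 9 relations computed over these 10 libraries, a set chosen after the values were seen. The same 9 were also computed in KO_star alone. After Benjamini-Hochberg adjustment over the 9 in the 10 libraries, p was 0.392 and 0.172, so the relation did not pass. Without the 2 libraries farthest from the median of Prom1, WT_star 33 and KO_star 29, r was 0.45 (exact permutation p 0.262), so it rests in part on those livers. Within KO_star alone r was 0.53 (n = 6, exact permutation p 0.282), without KO_star 16 it was 0.65 (n = 9, exact permutation p 0.0582), and WT_star with 4 libraries is too few.

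**Figure D3:**
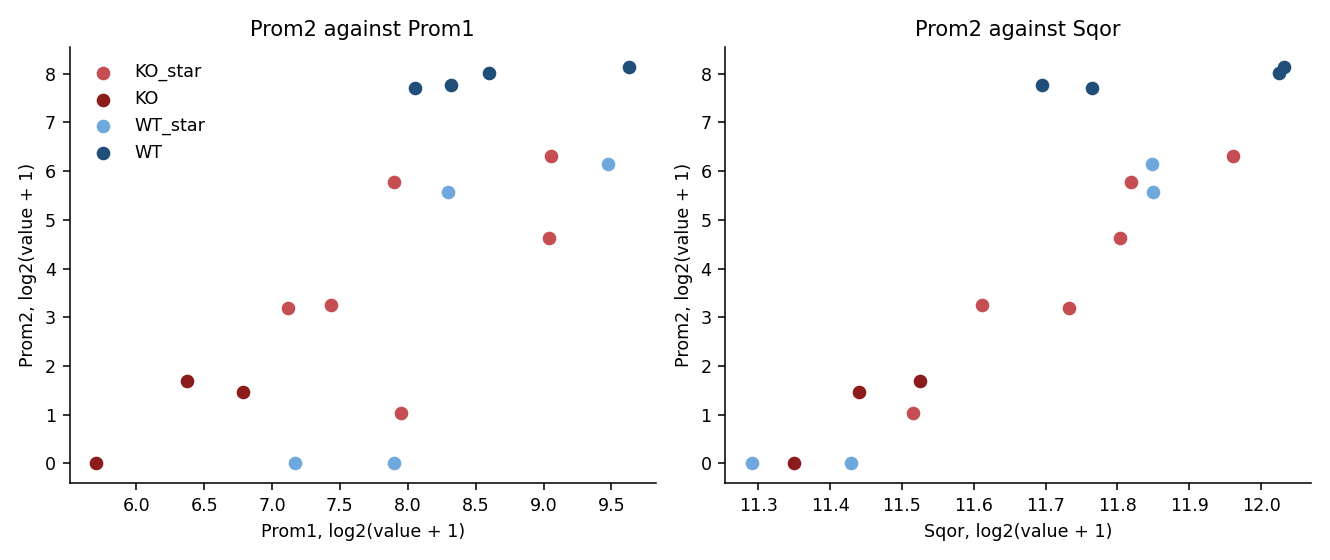
Prom2 against Prom1, and in a second panel Prom2 against Sqor, in each of the 17 libraries. All values are log2(value + 1), 1 point a library coloured by group. The KO libraries lie at low values of both prominins, and the 10 libraries of mixed ancestry are spread with r = 0.65 between Prom1 and Prom2. The WT libraries form the top of the plot, at 208.7 or more for Prom2.

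Of the 4 biliary genes set beside the prominins, none passed the test in KO against WT. Krt19 and Krt7 are keratins of bile duct cells, Epcam is an adhesion protein of epithelia, and Sox9 is a transcription factor of biliary and progenitor cells. Krt19 had 16.8, 35.5 and 17.7 in KO libraries, against 16.01, 14.8, 31.96 and 36.5 in WT. The groups overlapped, and the log2 difference was -0.06 (95% interval -0.90 to 0.78, limma adjusted p 0.964). For Krt7 the KO mean was 15.6 ± 1.31 (n = 3) and the WT mean 17.4 ± 2.47 (n = 4), a log2 difference of -0.15 (-0.98 to 0.69, limma adjusted p 0.903).

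Epcam was near the limit of the filter, with 8.10 ± 3.32 in KO (SD, n = 3) and 10.1 ± 3.34 in WT (n = 4). Its log2 difference was -0.30 (95% interval -1.13 to 0.53, limma adjusted p 0.768). Sox9 had 91.9, 186.4 and 112.2 in KO, against 88.0, 72.3, 85.6 and 80.1 in WT. Every KO library lay above every WT library, as for 8.86% of genes tested, yet the log2 difference of 0.61 (-0.21 to 1.43) had a limma adjusted p of 0.474. The lower bounds of these intervals were -0.90, -0.98, -1.13 and -0.21 on the log2 scale for Krt19, Krt7, Epcam and Sox9. The -2.36 of Prom1 and the -6.85 of Prom2 lie below these bounds, but they chose the genes and have no interval. Setting them side by side is thus a description with no test.

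**Figure D4:**
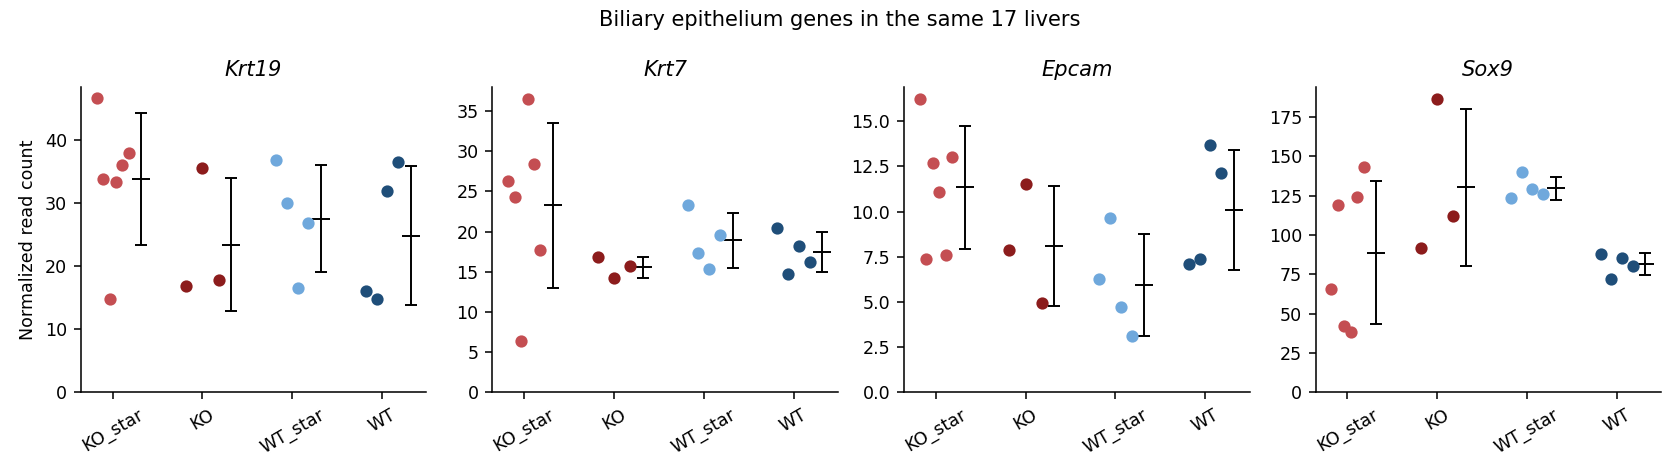
Normalized read counts of Krt19, Krt7, Epcam and Sox9 in each of the 17 libraries by group, 1 point a library. Bars show the mean ± SD of each group. The groups overlap for Krt19, Krt7 and Epcam, and the KO (91.9 to 186.4) and WT_star (123.6 to 140.1) libraries of Sox9 lie above the WT libraries (72.3 to 88.0).

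The same genes were not called where Prom2 was low in WT_star. Against WT, the WT_star log2 difference was 0.19 for Krt19 (limma adjusted p 0.862), 0.10 for Krt7 (0.935) and -0.72 for Epcam (0.373). Sox9 had 123.6 to 140.1 in WT_star and 72.3 to 88.0 in WT, with no overlap (every WT_star library was higher for 4.12% of genes tested), a log2 difference of 0.67 and a limma adjusted p of 0.402. Between KO_star and WT_star, Krt19 differed by 0.27 (limma adjusted p 0.916), Krt7 by 0.14 (0.954), Epcam by 0.87 (0.576) and Sox9 by -0.72 (0.663) on the log2 scale, and without KO_star 16 by 0.25, -0.01, 0.87 and -0.52. Over the 10 libraries of mixed ancestry, the 8 correlations of Prom1 or Prom2 with these 4 genes ran from -0.34 to 0.16. Without KO_star 16 they ran from -0.46 (Prom1 with Epcam) to 0.50 (Prom1 with Sox9, which had 0.11 with it).

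Among 12 further biliary genes, 6 passed the filter and none was called in KO against WT, WT_star against WT or KO_star against WT_star. Some of these, named after their values were seen, were well above the filter. Spp1, the secreted osteopontin, had 238.6 ± 22.5 in KO and 173.2 ± 25.1 in WT. Pkhd1, the cilium protein fibrocystin of bile duct cells, had 345.2 ± 19.5 in KO and 362.3 ± 78.1 in WT (SD, n = 3 and n = 4 for each gene). The summed value of the 12 genes was 1047 to 1145 in KO and 1018 to 1273 in WT. Single genes of the list varied, and Spp1 was above its WT range of 136.1 to 191.5 in all 3 KO libraries (214.5 to 258.9). Every KO library lay above every WT library for 8.86% of genes tested, and the limma adjusted p of Spp1 was 0.648. At 104.8 and 123.7 Spp1 was below its WT range in WT_star 20 and WT_star 21, which held no Prom2 read. In KO 32, also without a Prom2 read, Spp1 was above that range, at 214.5. A relation of Spp1 with Prom2 was not tested.

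The prominins were also set against 15 lists covering liver cell types and the membranes and functions prominins are known from, 125 genes in all, of which 103 were tested. In KO against WT, 3 of them rose and 4 fell, a share of 6.80% called against 2.89% of all genes tested, of which 1.32% rose and 1.57% fell. In WT_star against WT, 2 rose and 1 fell, or 2.91% against 0.904%, of which 0.532% rose and 0.371% fell. In KO_star against WT_star none was called. Leaving out each library of the groups in turn, Hspb1 and Ift81 passed every time, and the others did not. The lists were chosen with earlier results of these data known, so the shares called are descriptions.

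Of 12 microvillus genes, 8 were tested and 1 fell in KO. Pls1, plastin of the actin bundles of microvilli, had 139.0, 72.8 and 105.3 in KO, against 439.3, 302.3, 455.4 and 447.9 in WT. All KO libraries lay below all WT libraries, as for 9.49% of genes tested, and the log2 difference was -1.98 (SE 0.48, limma adjusted p 0.0406). Leaving out any 1 library ended this call, with adjusted p of 0.0506 to 0.173 and log2 differences of -2.20 to -1.74. The median log2 difference of the 8 genes was -0.18, against 0.01 over all genes tested. In WT_star against WT the median was -0.11 and in KO_star against WT_star -0.07, with none called.

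Of 10 primary cilium genes, all tested, 1 rose. Ift81, a subunit of the intraflagellar transport complex, had 89.7 to 102.3 in KO and at least 85.0 in WT_star, against 44.5 to 49.1 in WT. Every KO and WT_star library lay above every WT library, as for 8.86% of genes tested in KO and 4.12% in WT_star, each taken alone. The log2 differences were 1.02 in KO against WT (SE 0.17, limma adjusted p 0.00326) and 1.19 in WT_star against WT (SE 0.16, limma adjusted p 0.00138). The median of the list was 0.09 in KO against WT and -0.03 in WT_star against WT. None of the 10 tested genes of cholesterol-rich membrane domains and tetraspanins was called in either comparison, with medians of -0.02 and -0.07.

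Of 10 genes of iron storage and ferroptosis, the setting in which Prom2 has been studied in human cells, 9 were tested and 1 rose in KO. Hspb1, a small heat shock protein, had 72.9, 46.2 and 70.9 in KO, against 4.45, 4.11, 12.6 and 11.2 in WT. All KO libraries lay above all WT libraries, as for 8.86% of genes tested, and the log2 difference was 2.94 (SE 0.41, limma adjusted p 0.000820). The list's median was 0.08 in KO against WT and 0.01 in WT_star against WT. Of 8 genes of liver progenitors and fetal liver, 7 were tested and none was called, with a median of -0.60 in KO against WT and 0.15 in WT_star against WT.

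Cell type lists gave few calls, while some of their summed values differed between KO and WT. In KO against WT the sums were 1682000 to 1902000 against 2515000 to 2585000 for hepatocyte genes, 9292 to 9761 against 11760 to 14820 for stellate cell and fibroblast genes, 191.7 to 206.6 against 225.9 to 374.4 for mesothelial genes, and 275.5 to 319.5 against 458.3 to 680.9 for acinar genes. All KO libraries thus lay below all WT libraries in these 4 sums, as they did for both prominins and for 9.49% of single genes tested. Alb alone had 1266000 to 1480000 in KO and 1998000 to 2119000 in WT. The acinar sum rests on Cela1, as Cpa1, Cpb1, Cel, Pnlip and Ctrb1 had at most 2.37 in these libraries. The membrane domain and tetraspanin sum was also lower (12490 to 13210 against 13230 to 13660), and the lymphocyte sum was higher (188.9 to 236.2 against 108.4 to 184.8). The part of any cell type in the prominin values was not tested. Of 9 hepatocyte genes, albumin Alb (-0.59, limma adjusted p 0.0117) and the urea cycle enzyme Cps1 (-0.53, 0.0185) fell in KO, and the apolipoprotein Apoa1 fell in WT_star (-0.64, 0.0447), all as log2 differences against WT. Alb lost its call without KO 30 or KO 31 (adjusted p up to 0.0674) and on quantile-normalized values, where as the top gene it cannot differ. Cps1 lost its call when KO 31, KO 32, WT 27 or WT 28 was left out (up to 0.110) and on quantile-normalized values (0.0806), and Apoa1 kept its call only without WT 25 or WT_star 21 (up to 0.144). Of 10 stellate cell and fibroblast genes, the receptor Pdgfrb fell in KO (-0.56, limma adjusted p 0.0489), and the list's median was -0.57. Of 8 tested lymphocyte genes, the immunoglobulin genes Igkc rose 2.83-fold in KO (limma adjusted p 0.0144) and Ighm 1.80-fold in WT_star (0.0467). Igkc lost its call without KO 30 or KO 31 (up to 0.0749), Ighm kept its call only without WT 25 or WT 26 (up to 0.124), and Pdgfrb only without WT 26 (up to 0.184). None of 7 endothelial, 7 Kupffer cell or 5 mesothelial genes, nor the tested acinar (1) and intestinal (2) genes, was called in KO against WT or WT_star against WT.

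Most genes beside the prominins were not called. Of 41 genes listed within 1 Mb of Prom1, 19 were tested and none was called in KO against WT, WT_star against WT or KO_star against WT_star. Their log2 differences in KO against WT ran from -0.65 to 1.20, with a median of 0.11. The nearest tested gene above Prom1 was Tapt1, a transmembrane protein gene, with a log2 difference of -0.07 (limma adjusted p 0.837), and the nearest below was Gm5292, with 0.69 (0.803).

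Of 40 genes listed within 1 Mb of Prom2, 30 were tested and 2 were called in KO against WT, where 2.89% of all genes tested were called. The median log2 difference was -0.02. The nearest tested genes on either side, Kcnip3 (-0.40, limma adjusted p 0.681), a calcium-binding channel partner, and Zfp661 (0.03, 0.963), a zinc finger gene, were not called. Mal, a membrane proteolipid of apical transport at chr2:127633226-127656695, had 0, 2.66 and 0 in KO, against 12.5, 9.86, 14.8 and 10.1 in WT. It fell, with a log2 difference of -3.04 (SE 0.63, limma adjusted p 0.0140), and without KO 30 or KO 32 it no longer passed (adjusted p up to 0.0775). With 3 reads in the KO libraries together, its size depends on the pseudocount, at -1.53 with 5 and -3.72 with 0.5. Gpat2, a glycerol-3-phosphate acyltransferase at chr2:127425199-127436092 on the other side of Prom2, had 49.3, 47.9 and 62.0 in KO, against 32.01, 10.7, 14.8 and 10.1 in WT, and rose by 1.73 (SE 0.32, limma adjusted p 0.00697). In WT_star against WT, where Prom2 differed by -4.98, none of the 30 was called. Mal had 0.90, 4.83, 12.9 and 4.12 in WT_star, overlapping with WT. Gpat2 had 27.85 to 43.9 in WT_star, also overlapping with WT, and a log2 difference of 1.13 (limma adjusted p 0.0740). In that comparison Gpat2 was called with library weights, with DESeq2 and without WT 25.

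**Figure D5:**
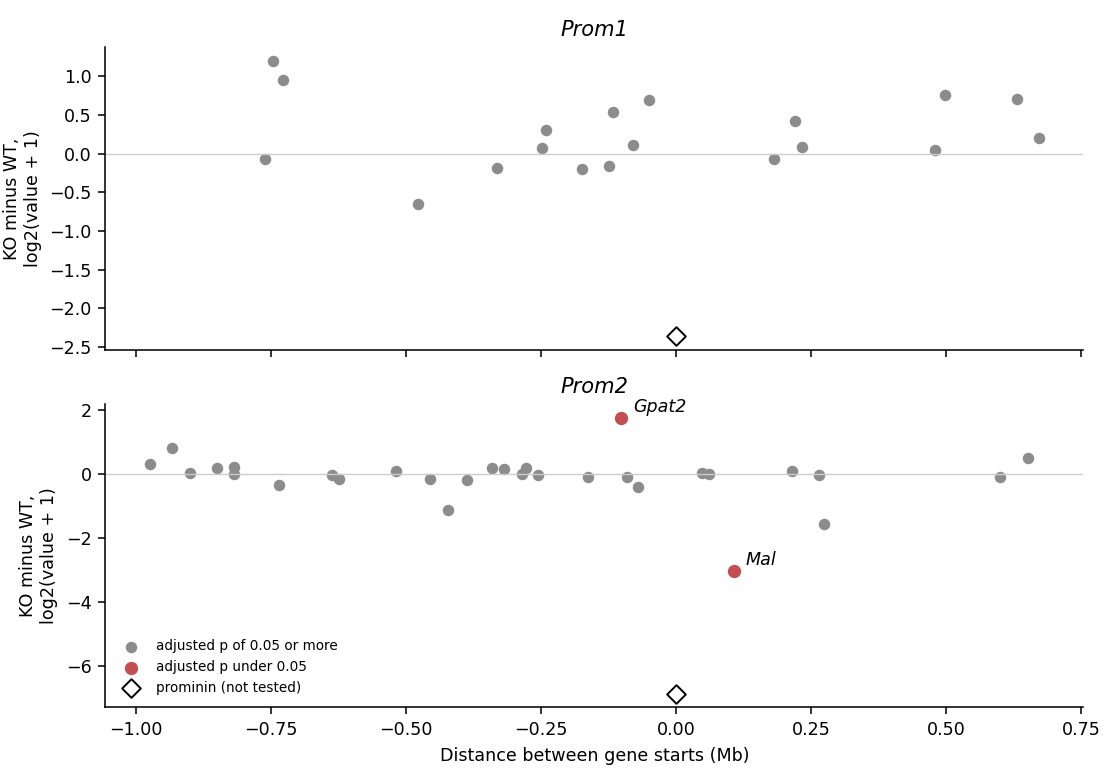
Log2 differences of KO against WT for the tested genes within 1 Mb of Prom1 and of Prom2, plotted against distance from the member's start in Mb. Genes called at an adjusted p under 0.05 are set apart by colour, and an open diamond marks the prominin itself, which was not tested. The genes around Prom1 lie between -0.65 and 1.20, and around Prom2 only Mal (-3.04) and Gpat2 (1.73) were called.

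Likeness to each prominin was measured as Pearson's r of log2(value + 1) over all 17 libraries, among 13513 genes with a mean value of at least 20. The points share group structure, so these are descriptions with no test. Most like Prom1 were Zfp868, a zinc finger gene (r 0.89, Spearman's rho 0.91), the phospholipase gene Pla1a (0.86, 0.88), Ppp4r4, a regulatory subunit of protein phosphatase 4 (0.86, 0.88), the semaphorin receptor gene Plxnb1 (0.86, 0.90) and the retinol dehydrogenase gene Rdh5 (0.85, 0.84). Each lies on a chromosome other than 5. Prom2 ranked 115 in this list, with r 0.73 and rho 0.78.

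Most like Prom2 were Eif3j2 (r 0.96, Spearman's rho 0.91), Bloc1s6 (0.92, 0.92), C4a (0.90, 0.86), Sqor (0.90, 0.88) and Exd1 (0.90, 0.90). Eif3j2 encodes a copy of a translation initiation factor subunit and C4a a complement C4, and each has a near-identical copy, Eif3j1 or C4b, so its reads may be divided between copies. Bloc1s6, a subunit of a complex for lysosome-related organelles, Sqor, the mitochondrial sulfide oxidase, and Exd1, an exonuclease-domain gene, lie on chromosome 2 with Prom2 but outside the 1 Mb window, at -4.79, -4.76 and -8.01 Mb from it. Prom1 ranked 88 in this list. Of the 100 genes most like Prom2, 17 lie on chromosome 17, which holds 4.63% of the genes ranked, 13 on chromosome 2 (7.55%) and 13 on chromosome 8 (5.48%). Of the 100 most like Prom1, 12 lie on chromosome 8, 9 on chromosome 2 and 8 on chromosome 17.

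A ranking over the 10 libraries of mixed ancestry alone was added after the values were seen. There Sqor (r 0.96) and Bloc1s6 (0.93) were again among the 5 genes most like Prom2, beside Ccl27a (0.93), Pign (0.92) and Gckr (0.91). Of the 100 genes most like Prom2 over these libraries, 20 lie on chromosome 17 and 11 on chromosome 1, which holds 6.44% of the genes ranked. Chromosome 8 had 8 of them, and chromosome 2, with 7.55% of the genes ranked, had 6. For Prom1 the 5 were Meg3 (0.91), Zik1 (0.91), Mipol1 (0.89), Snx6 (0.88) and Smchd1 (0.87), none of which was in the list over 17 libraries. Krt19 and Sox9 ranked 6904 and 8301 in likeness to Prom1 over 17 libraries, and 8748 and 10373 to Prom2, while Krt7 and Epcam had too low a mean to be ranked. The r over 17 libraries was -0.03, 0.23, -0.06 and -0.14 between Prom1 and Krt19, Krt7, Epcam and Sox9, and -0.14, 0.02, 0.09 and -0.25 for Prom2.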

How the data were processed

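Liver RNA of 17 mice was sequenced after ribosomal RNA depletion, and per the labels' protocols the kit keeps strand. Each library carries its group's name and its title's number. The labels give no litter, strain, batch or date, so p-values reflect the spread of these samples alone, which may be technical. The deposited values are a signal, which the authors made by dividing each library's gene reads by its size factor. Whole reads were recovered from the value of 1 read, and 100.0% of values came out whole at a tolerance of 0.001 reads. Of the upstream steps, the submitters' processing notes list GRCm38 with cutadapt, HISAT2 and DESeq2, without versions. The counting setup, with its annotation and strand setting, is not given in the sources used here. Of the identifiers, 26963 matched GENCODE release M21 (24354 with the version), which gave positions and exon lengths.

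Tests used limma 3.58.1 (R 4.3.3, statmod 1.5.0) on log2(value + 1), fitting 1 mean for each group, with all 17 libraries sharing a trended and robust variance. The filter on low values (10 or more in 3 or more libraries) kept 16157 genes. Adjustment was Benjamini-Hochberg over all of them, at 0.05. On recovered reads, edgeR 4.0.16 called 438 genes in KO against WT and 109 in WT_star against WT, and DESeq2 1.42.0 called 865 and 602. The limma fit was tested on simulated counts for KO_star against WT_star only, and edgeR and DESeq2 were not. Intervals on reads cover counting error only, since there are no molecular identifiers. No library was a duplicate of another in its group, the chi-square of their reads being 8.53 to 101.7 per degree of freedom.

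The members and gene lists were chosen with earlier results of these data known. Named genes were the members, the 4 biliary genes, up to 4 called members of each list, the called and nearest tested neighbours within 1 Mb, and the 5 genes most like each member with a mean of at least 20 and no predicted-gene name. Other genes are named as chosen after their values were seen, and 1 gene is not reported here. Alternatives tried were leaving out each library in turn, both count tests, library weights, fits on the compared libraries alone, quantile normalization, equal totals, other filters (none, or 50) and other pseudocounts (0.5 or 5).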

Additional observations from a re-analysis of the deposited data

Results flagged for a closer look

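Each of the 37 genes named or set beside the prominins was checked for a library far from the rest of its group, in 110 groups of 4 to 6 libraries. A library stood out 6 times, and chance gives about 1 in 20 groups. Krt19 was low in KO_star 14, at 14.82. Library WT 26 was low for Pdgfrb, at 404.11, and for Pls1, at 302.26. Among WT libraries, WT 25 was high for Ppp4r4, at 315.7, and low for Spp1, at 136.06. Gm42716 had 0.82, or 1 read, in WT 26 and none in the other WT libraries. Neither Prom1 nor Prom2 stood out in any group.

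For 9 of the named genes the interaction of KO_star minus WT_star less KO minus WT passed limma's threshold, as it did for 1.29% of all genes tested. These 9 were named for their KO against WT values or for their likeness to Prom1 over the same libraries, which the interaction holds, so the values are descriptions and support nothing. No such value is given for the prominins, for the same reason. Its log2 value was positive for Alb (0.86, limma adjusted p 0.0119), Mal (3.42, 0.0488), Pla1a (0.97, 0.0463), Plxnb1 (1.36, 0.0303) and Zfp868 (1.36, 0.0140). It was negative for Gpat2 (-1.92, 0.0305), Hspb1 (-3.25, 0.00580), Ift81 (-1.12, 0.0200) and Igkc (-1.74, 0.0443).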

How the results depend on the processing

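No paired analysis was possible because no replicate number occurs in more than 1 group. The log2 difference of Prom2 in KO against WT was -5.28 with a pseudocount of 5 and -7.50 with DESeq2. Prom1 in KO_star against WT_star turned to 0.27 with library weights (limma adjusted p 0.819) and ran from -0.47 to 0.29 leaving out each library, positive without WT_star 33 (0.29), KO_star 12 (0.07) or KO_star 14 (0.0029). It passed the threshold in none of these settings. Krt19 in KO against WT turned to 0.0028 with equal totals and ran from -0.39 to 0.15 leaving out each library (0.0916 without WT 27, 0.1534 without WT 28, 0.1234 without KO 30, 0.0879 without KO 32). Krt19 in WT_star against WT ran from -0.0077 (without WT 26) to 0.4111, Krt7 in KO_star against WT_star from -0.0147 (without KO_star 16) to 0.4551, and Zfp661 in KO against WT from -0.035 (without KO 32; -0.0097 without KO 31) to 0.1207. Genes called in KO against WT were 1280 with library weights, 754 with only the libraries compared, 865 with DESeq2, and 150 to 388 leaving out each library. In WT_star against WT they were 757, 96, 602 and 33 to 184, and in KO_star against WT_star 13 with weights, 62 with DESeq2 and 0 to 20. Called genes of the lists in KO against WT were 18, 14, 12 and 2 to 7, in WT_star against WT 9, 1, 5 and 1 to 3 (1 with edgeR), and in KO_star against WT_star 1 with DESeq2. Called neighbours of the prominins in KO against WT were 6 with weights, 4 with only the libraries compared, 0 with a filter of 50, and 1 to 2 leaving out each library. In WT_star against WT they were 3 with weights, 2 with DESeq2, 1 (Gm42716) with no filter and 0 to 1. The r of Prom1 with Prom2 was 0.45 without the 2 farthest libraries, 0.53 in KO_star alone and 0.65 without KO_star 16, choices made after seeing the data. The cause of these changes was not tested. Prom2 at 0 to 8.47 in 8 libraries is limited by depth, 3 reads being 2.38 to 3.55.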
